A study of Rattus norvegicus with 9 samples.

Results

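Cytosolic ribosomal proteins are the proteins that, with the ribosomal RNAs, build the 2 subunits of the ribosome that makes most of the cell's protein. Their genes were taken here as every array feature whose only gene symbol in the platform annotation is that of a cytosolic ribosomal protein, by a fixed pattern of symbols (Rps or Rpl followed by a number, Rpsa and Rplp0 to Rplp2), with the kinases of ribosomal protein S6 left out. A feature is the set of probes that the array summarises into 1 value. The pattern found 257 features of 70 genes among 29214 features, of which 15310 name 1 gene and were tested. The small (40S) subunit had 86 features of 26 genes, and the large (60S) subunit had 171 features of 44 genes.

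The values are log2 expression levels of cultured cells of adult Sprague Dawley rats on a whole-transcript array, the Rat Gene 1.0 ST of Affymetrix, with 3 independent samples in each of 3 groups. Schwann cells are the glia that wrap and support the axons of peripheral nerves. SKP-derived Schwann cells were made from skin-derived precursors of the dorsal trunk, passaged once and grown to confluence in Schwann cell growth medium. Nerve Schwann cells, which the sample titles give as sciatic nerve Schwann cells, were passaged once and grown to confluence in the same kind of medium. SKPs are the skin-derived precursors themselves, harvested as spheres after a small number of passages. No genotype or drug treatment is named that separates the groups, but the contents of the media and the medium of the SKPs are not given here. All 9 arrays hold cultured cells rather than tissue. Per the labels, the SKP samples had been deposited earlier and were reanalysed here. Dermis is the tissue named for all 9 arrays, which conflicts with the titles of the sciatic nerve Schwann cells. Array batch, culture form, growth medium and cell type cannot be told apart in any comparison with SKPs. P-values set a difference between groups against the spread between samples within groups, and that spread does not hold any batch difference between groups.

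The cell types were checked against marker genes. All 8 measured Schwann cell markers of 10 listed, among them Erbb3, Cdh19 and S100b, were called higher in both kinds of Schwann cell than in SKPs, and 8 of 10 SKP and dermal markers, among them Pdgfra and Prrx1, were called lower. The 10 macrophage and immune markers averaged 5.35 to 5.48 on the log2 scale in SKP-derived Schwann cells, 5.52 to 5.62 in nerve Schwann cells, and 8.21, 6.14 and 5.50 in SKPs 1 to 3 (levels after cyclic loess, a scaling that aligns the arrays along the range of levels), so SKP array 1 stood apart. The 10 SKP and dermal markers averaged 12.06, 12.06 and 10.42 on SKP arrays 1 to 3 on the same scale, so SKP array 3 stood apart on that list. The 4 measured melanocyte markers averaged 6.16, 6.46 and 7.02 on SKP arrays 1 to 3, highest on SKP array 3. Results without SKP array 1 and without SKP array 3 are given below, and the part of such differences in cell make-up in the results was not tested. The median deposited level of all 29214 features was 6.33 to 6.44 in SKP-derived Schwann cells, 6.82 to 6.87 in nerve Schwann cells and 6.20 to 6.27 in SKPs, and counts of features after cyclic loess are therefore given beside those on the deposited values, for the whole family, its subunits and each gene list. In bulk samples, fewer cells of a type and less RNA per cell cannot be told apart.

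Ribosomal protein genes are among the most strongly transcribed genes of growing cells, and their mRNAs carry a pyrimidine-rich start, the 5′ terminal oligopyrimidine (TOP) tract, through which the mTOR pathway and the RNA-binding protein Larp1 control their translation. Mammalian genomes hold many processed copies of ribosomal protein genes, so several features that carry 1 symbol can measure near-identical sequence, and a difference at a single feature is uncertain in this family.

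The start regions of 7 genes are shown as examples of genes with features called lower or higher, chosen after their values were seen. The 88 bases run 5′ to 3′ on the gene's strand, 60 before the annotated start and 28 from it onward, in RefSeq promoters of assembly GRCr8, and capitals mark the longest run of C and T that lies within 28 bases of the start. Rps3 (chr1:163195749-163195836, minus strand), Rpl13 (chr19:68062454-68062541, plus strand) and Rps7 (chr6:50999418-50999505, minus strand) had features called lower in nerve Schwann cells. Of these, Rpl13 had 6 features called lower and 1 called higher. Rpl39 (chrX:121195869-121195956, minus strand), Rpl31 (chr9:49143051-49143138, plus strand), Rps15 (chr7:10068088-10068175, minus strand) and Rpl41 (chr7:1563470-1563557, minus strand) had features called higher.
Rps3: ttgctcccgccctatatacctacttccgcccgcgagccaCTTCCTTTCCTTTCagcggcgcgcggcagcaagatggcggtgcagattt
Rpl13: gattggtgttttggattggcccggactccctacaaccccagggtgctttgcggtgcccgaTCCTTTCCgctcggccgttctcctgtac
Rps7: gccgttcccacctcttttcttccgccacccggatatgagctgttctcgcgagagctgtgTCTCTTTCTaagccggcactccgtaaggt
Rpl39: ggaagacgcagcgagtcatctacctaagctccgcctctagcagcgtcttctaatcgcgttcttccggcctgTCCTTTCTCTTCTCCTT
Rpl31: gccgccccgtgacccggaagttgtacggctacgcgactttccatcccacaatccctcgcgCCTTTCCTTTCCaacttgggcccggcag
Rps15: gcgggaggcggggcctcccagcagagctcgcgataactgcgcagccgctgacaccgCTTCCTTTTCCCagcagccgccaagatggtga
Rpl41: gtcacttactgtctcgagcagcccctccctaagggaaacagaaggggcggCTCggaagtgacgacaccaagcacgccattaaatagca

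The run was 14 bases in Rps3, 8 in Rpl13, 9 in Rps7, 17 in Rpl39, 12 in Rpl31, 12 in Rps15 and 3 in Rpl41. A run of at least 8 C or T within 28 bases of the start was present in 82.8% of the 58 promoters of these genes that the RefSeq table holds, against 21.7% of all 33469 promoters in it. Of the genes whose every feature was called lower in nerve Schwann cells against SKPs, 25 of 30 with a promoter had such a run, and of those with every feature called higher, 3 of 5 had one. The motif CTTTCC on the gene's strand in the same window, which can overlap such a run, was in 31.0% of the 58 promoters, against 2.44% of all, while its complement GGAAAG was in 1.72% and 2.56%. The ETS-like motif CGGAAG on either strand was searched in a longer window, the 250 bases before the start, and was in 29 of 58, against 13.9% of all promoters. TATAAA on either strand from 40 to 21 bases before the start was in 3.45%, against 1.58%. These matches describe the letters in these windows.

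In SKP-derived Schwann cells, more ribosomal protein features were lower than higher relative to SKPs. By limma (adjusted p under 0.05 over all 15310 features), 86 of 257 features were called lower, where 22.4% of all features were, and 54 were called higher, where 19.5% of all were. The median difference of the 257 features was -0.31 on the log2 scale, against -0.01 over all features tested (a log2 difference of 1 is a 2-fold change). After cyclic loess, 106 were called lower, where 21.6% of all features were, and 44 higher, where 21.4% of all were. Of the small subunit's 86 features 29 were called lower and 9 higher (by cyclic loess, 36 and 4), and of the large subunit's 171 features 57 were called lower and 45 higher (70 and 40). By gene, 23 of 70 had every feature called lower, where 22.0% of all 14506 genes had, and 11 had every feature called higher, where 19.1% of all genes had, while 22 had no feature called. Without SKP array 1, 80 features were called lower and 48 higher. Single arrays moved the median: it was -0.12 without SKP-derived array 1 (71 lower and 57 higher) and -0.19 without SKP array 3 (77 lower and 59 higher).

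In nerve Schwann cells the balance lay further toward lower levels. By limma, 141 of 257 features were called lower than in SKPs, where 15.4% of all features were, and 38 were called higher, where 49.0% of all were. The median difference was -0.68, against 0.44 over all features tested. After cyclic loess, which brought the median of all features to 0.02, 162 were called lower, where 23.9% of all features were, and 29 higher, where 24.3% of all were, with a median of -0.90. The small subunit had 51 of 86 features called lower and 2 called higher (by cyclic loess, 60 and 1), and the large subunit had 90 of 171 called lower and 36 called higher (102 and 28). By gene, 33 of 70 had every feature called lower, where 14.5% of all genes had, and 5 had every feature called higher, where 49.3% of all genes had. Without SKP array 1, 127 features were called lower and 33 higher. Without SKP array 3, 128 were called lower and 42 higher, with a median of -0.55. Both comparisons use the same 3 SKP arrays, so they are not independent of each other.

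**Figure D1:**
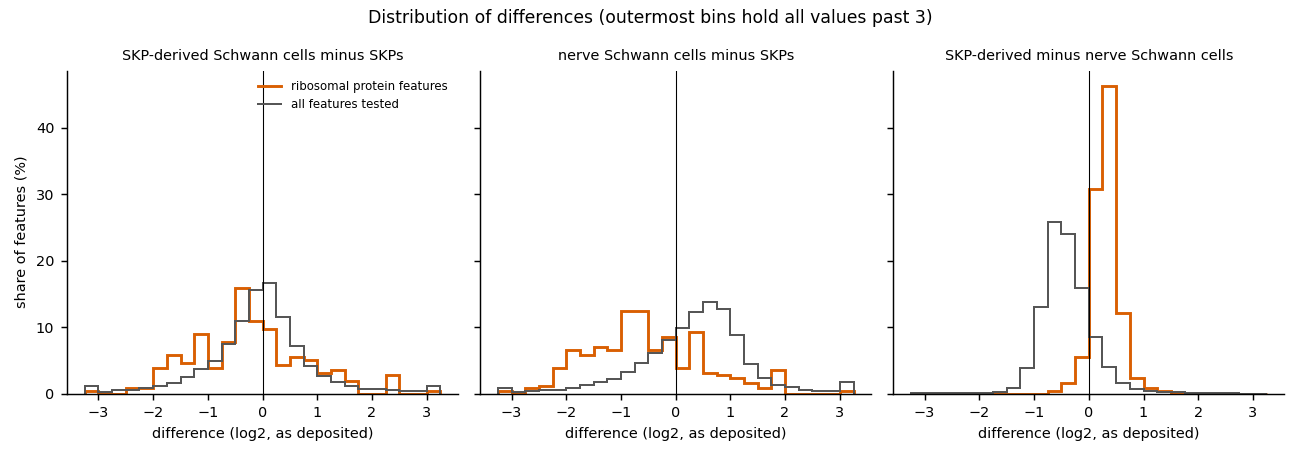
Share of features (percent) by log2 difference, in steps along the horizontal axis, for the 257 ribosomal protein features and for all 15310 features tested, in 3 comparisons. The ribosomal protein features have a median of -0.31, -0.68 and 0.31, against -0.01, 0.44 and -0.44 over all features.

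The features called lower with the greatest differences belonged to Rps3, Rpsa, Rps27 and Rpl13. They were picked among called features whose groups do not overlap, so the lack of overlap and the small p-values are no added support. Over all features tested, SKP-derived Schwann cells lay wholly below SKPs in 26.0% and wholly above in 22.2%. For nerve Schwann cells these shares were 18.3% and 55.1%. Rps3, which lines the mRNA entry of the small subunit and also takes part in DNA repair, had levels of 9.95, 10.01 and 10.56 in SKP-derived Schwann cells, 9.61, 9.74 and 10.08 in nerve Schwann cells, and 13.08, 13.15 and 13.38 in SKPs (feature 10723891). All 6 Schwann cell arrays lay below all 3 SKP arrays. The difference was -3.03 ± 0.20 (SE) in SKP-derived Schwann cells (limma adjusted p = 7.04e-06) and -3.39 ± 0.20 in nerve Schwann cells (limma adjusted p = 4.09e-06). The other Rps3 feature differed by -1.47 and -1.70, both called, so the gene's features agreed in direction and not in size.

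Rpsa, the small-subunit protein also known as the laminin receptor, had levels of 7.83, 8.10 and 8.27 in SKP-derived Schwann cells, 7.71, 7.95 and 8.07 in nerve Schwann cells, and 10.10, 9.83 and 10.77 in SKPs (feature 10772950). These groups did not overlap, with a difference of -2.17 in SKP-derived (limma adjusted p = 0.000111) and -2.33 in nerve Schwann cells (limma adjusted p = 5.73e-05). Its second feature was also called lower in both, by -2.34 and -2.60. Rps27, a zinc-binding protein of the small subunit, had 1 feature, with levels of 3.82, 5.24 and 4.98 in SKP-derived Schwann cells, 4.44, 4.36 and 4.76 in nerve Schwann cells, and 6.79, 6.96 and 7.49 in SKPs. It was called lower by -2.40 and -2.56, and SKP-derived array 1 was the lowest of the 9. Its levels in both kinds of Schwann cell lay below the median of all features on those arrays, and whether they stood above background was not assessed, so the size of the Rps27 difference is uncertain.

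Rpl13, a protein of the large subunit, had 7 features that did not act alike. The 6 features that the annotation ties to its reference transcript were called lower by -1.88 to -2.07 in SKP-derived and by -2.07 to -2.33 in nerve Schwann cells. In the feature with the lowest difference in nerve Schwann cells (10777032), the levels were 8.58, 9.58 and 9.34 in SKP-derived Schwann cells, 8.76, 8.77 and 8.96 in nerve Schwann cells, and 11.36, 10.67 and 11.44 in SKPs. The 7th feature (10808601), which the annotation ties to a different cDNA record of the same gene, went the other way, with 9.85, 10.31 and 9.52 in SKP-derived Schwann cells, 10.53, 10.00 and 10.09 in nerve Schwann cells, and 5.64, 5.50 and 5.68 in SKPs. That is 4.29 ± 0.22 higher in SKP-derived (limma adjusted p = 2.17e-06) and 4.60 ± 0.22 higher in nerve Schwann cells (limma adjusted p = 1.43e-06), and these features therefore give no single direction for Rpl13. The SKP levels of the 7th feature lay below the median of all features on those arrays and were not checked against background, so the size of its difference is uncertain too.

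**Figure D2:**
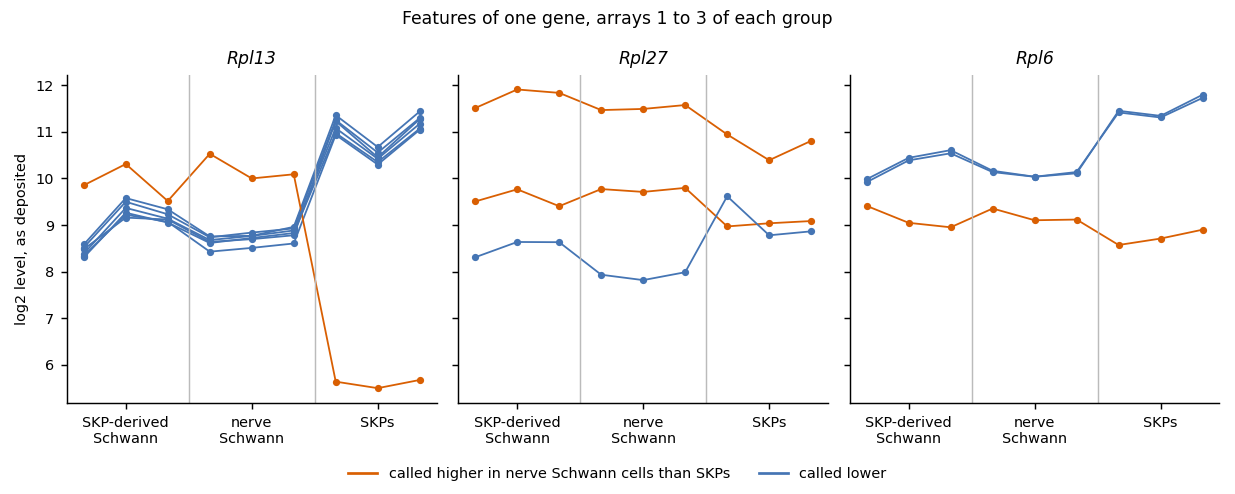
Log2 level (vertical axis) of every feature of Rpl13, Rpl27 and Rpl6 on arrays 1 to 3 of each group (horizontal axis), where each line joins the values of 1 feature and its colour gives its call in nerve Schwann cells against SKPs. Rpl13 has 1 feature at 5.50 to 5.68 in SKPs while its other 6 are higher there than in either kind of Schwann cell.

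Opposite calls within 1 gene were found for Rpl13, Rpl27 and Rpl6 in nerve Schwann cells and for Rpl13 in SKP-derived Schwann cells. Rpl27, a large-subunit protein, had 2 features called higher in nerve Schwann cells, by 0.80 and 0.73, and 1 called lower, by -1.17. Rpl6, also of the large subunit, had 2 features called lower, by -1.44 and -1.37, and 1 called higher, by 0.46 (limma adjusted p = 0.0306), a call that cyclic loess ended (limma adjusted p = 0.196). Over the 54 genes with more than 1 feature (241 features), all features of a gene had the same sign in 44 genes in SKP-derived Schwann cells and in 44 genes in nerve Schwann cells against SKPs. The range within a gene had a median of 0.27 and 0.33, and exceeded 1 in 5 and 8 genes, among them Rps3, Rps9 and the 3 genes with opposite calls. Differences between genes made up 83.6% of the variation among these features in SKP-derived and 79.8% in nerve Schwann cells. Between SKP-derived and nerve Schwann cells the share was 66.8%. Such a share is above 0 even with no gene effect, and features with equal values raise it, so it is no measure of agreement by itself.

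Several other genes had all of their features called lower against SKPs. Rps15a had 6 of 6, by -1.39 to -1.69 in SKP-derived and -1.67 to -2.13 in nerve Schwann cells. Rps12 had 4 of 4, by -1.69 to -1.82 and -1.77 to -1.99, and Rps21 had 4 of 4, by -0.91 to -1.75 and -1.03 to -2.07. Rpl7a had the most features of this kind, with all 13 called lower, by up to -1.44 in SKP-derived and up to -1.83 in nerve Schwann cells. Rpl8, whose protein lies close to the ribosome's peptidyl transferase centre, had both features lower by -1.78 and -1.52 in SKP-derived and by -2.23 and -1.90 in nerve Schwann cells. Rpl21, with 21 features the most of any gene, had 9 called lower in SKP-derived and 20 called lower in nerve Schwann cells, by at most -0.60 and -0.97.

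**Figure D3:**
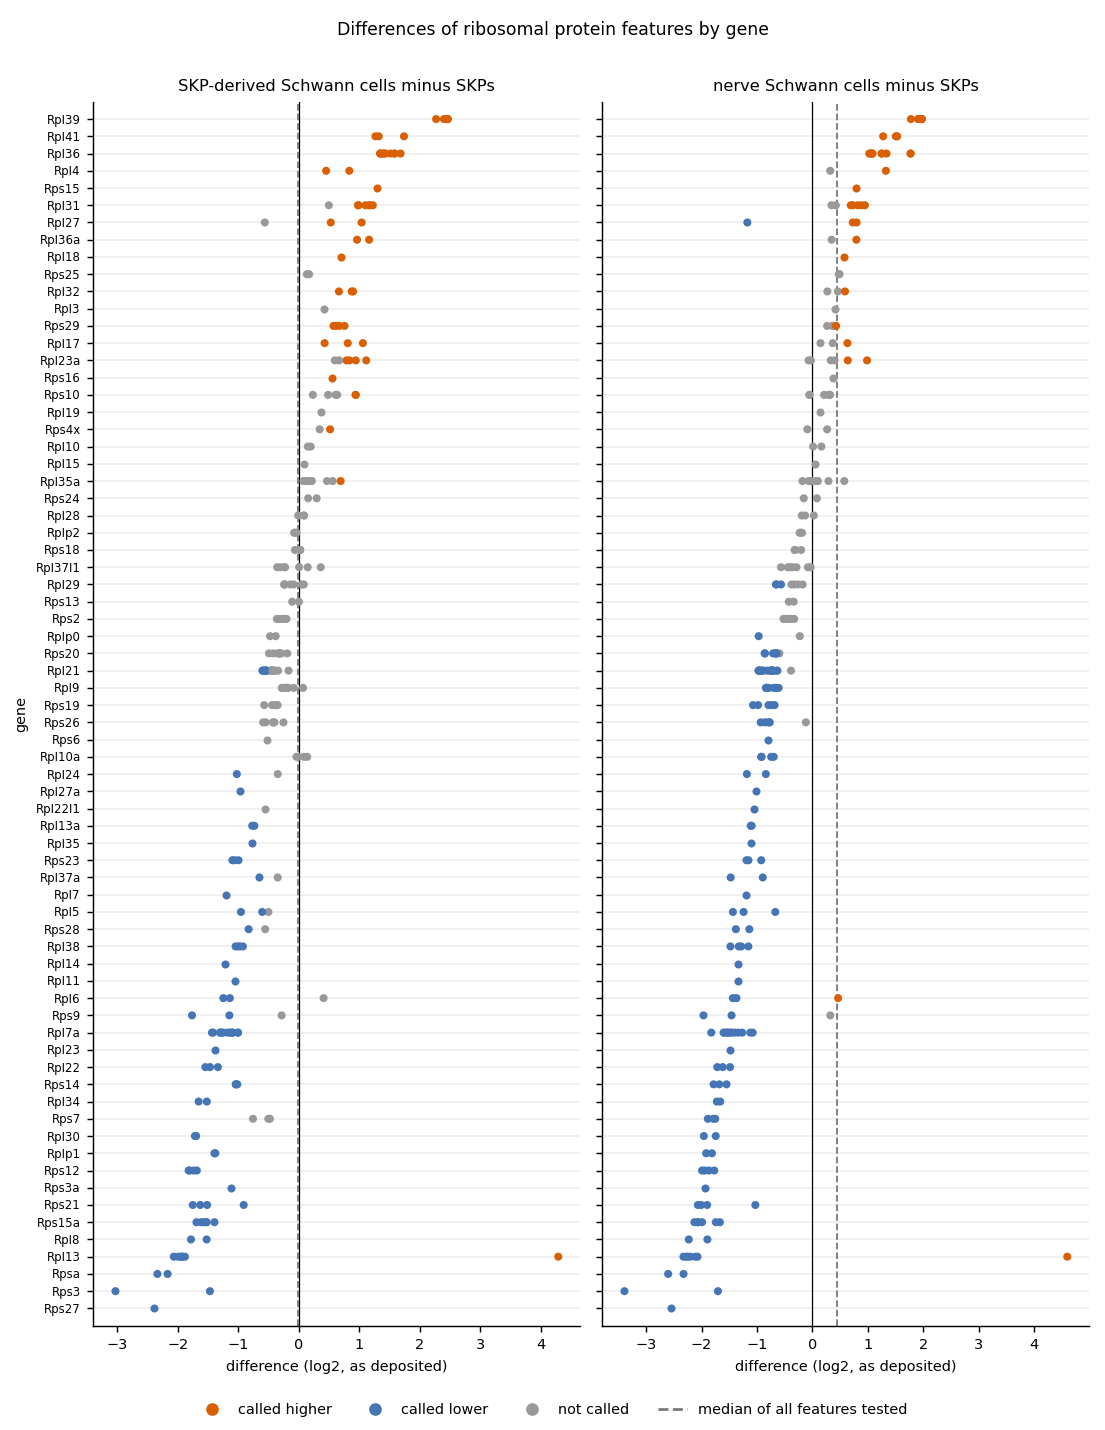
Log2 difference from SKPs (horizontal axis) of each of the 257 features (points), by gene (vertical axis), for SKP-derived and nerve Schwann cells, coloured by the limma call, with a dashed line at the median of all features tested. Rps27, Rps3 and Rpsa lie at the lower end and Rpl39, Rpl41 and Rpl36 at the upper end, and 1 feature of Rpl13 stands apart at 4.29 and 4.60.

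A smaller set of genes had higher levels in both kinds of Schwann cell, led by 3 small basic proteins of the ribosome. Rpl39, a very short protein in the wall of the peptide exit tunnel, had levels of 11.94, 12.56 and 12.22 in SKP-derived Schwann cells, 11.85, 11.57 and 11.85 in nerve Schwann cells, and 9.78, 9.40 and 10.17 in SKPs (feature 10782917). All 7 features, which hold 4 distinct sets of values, were called higher, by 2.27 to 2.46 in SKP-derived and 1.78 to 1.97 in nerve Schwann cells. The limma adjusted p of this feature was 3.85e-05 and 9.89e-05. Its groups did not overlap, but a call without overlap was the condition by which it was picked. Rpl41, the shortest of the ribosomal proteins, had 3 of 3 features called higher, by 1.27 to 1.74 and by 1.28 to 1.53. Its feature 10899824 had levels of 12.68, 13.13 and 12.53 in SKP-derived Schwann cells, 13.06, 12.74 and 12.41 in nerve Schwann cells, and 11.33, 11.32 and 11.73 in SKPs. Rpl36, a large-subunit protein, had 10 of 10 features called higher, by 1.34 to 1.68 in SKP-derived and 1.03 to 1.77 in nerve Schwann cells. Under cyclic loess all features of Rpl39, Rpl41 and Rpl36 were still called higher in both comparisons.

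**Figure D4:**
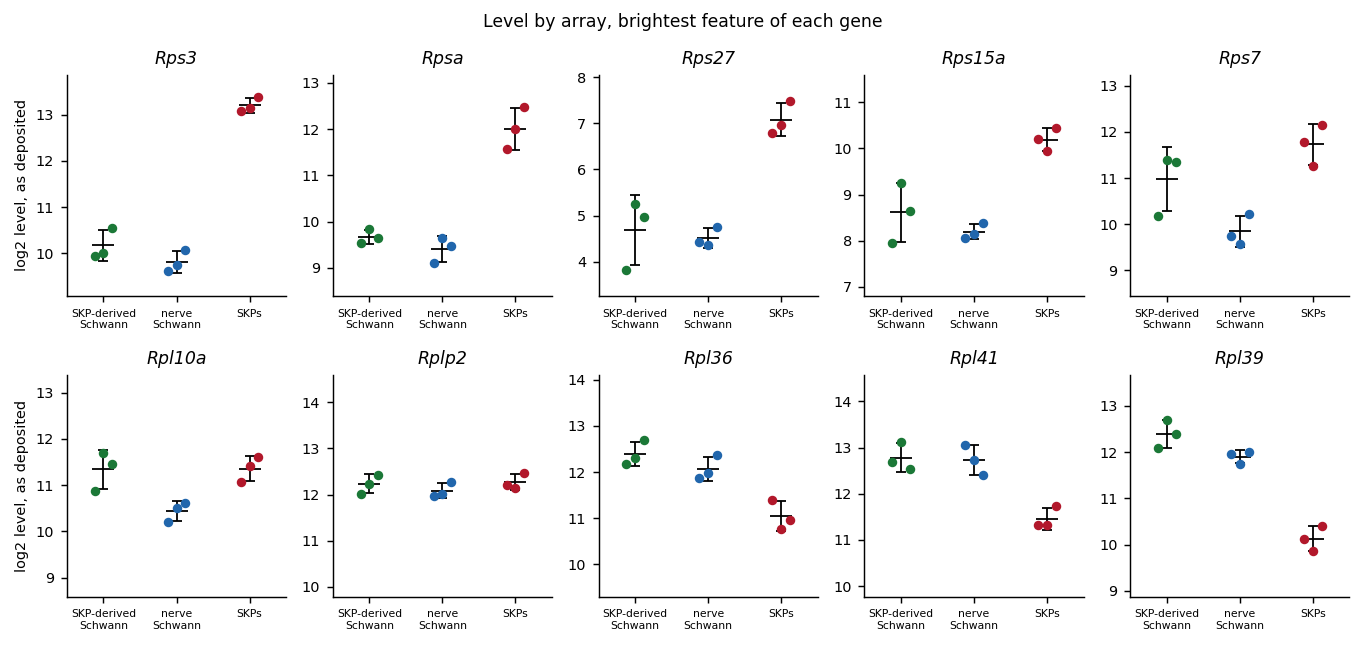
Log2 level (vertical axis) of 10 genes, each by its brightest feature, on the 3 arrays of each group (points, with the mean and SD as lines). Rps3 and Rpsa are lower, and Rpl36, Rpl41 and Rpl39 higher, on all 6 Schwann cell arrays than on the 3 SKP arrays. For Rps7 and Rpl10a the nerve arrays lie below the SKP arrays, while the SKP-derived mean lies nearer to that of SKPs than to that of nerve Schwann cells.

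The genes were next grouped by the place of their proteins on the ribosome. Over all features tested, the shares called lower were 22.4% in SKP-derived and 15.4% in nerve Schwann cells, and the shares called higher were 19.5% and 49.0%. After cyclic loess the shares called lower were 21.6% and 23.9%, and the shares called higher were 21.4% and 24.3%. The lists that follow stand against these shares, each count against the share on its own scale. At the peptide exit of the large subunit, where the new chain leaves, 7 of 8 listed genes were measured by 28 features, and 20 were called higher and 4 lower in SKP-derived Schwann cells (median 0.98), and 15 higher and 4 lower in nerve Schwann cells (median 0.64). In nerve Schwann cells the share called higher on the deposited values was near the 49.0% of all features. The 4 lower features were those of Rpl22 (3 of 3) and Rpl35 (1 of 1), and Rpl19 was not called. The higher ones were the 7 of Rpl39 together with features of Rpl31 (6 of 7 in SKP-derived and 5 of 7 in nerve Schwann cells), Rpl23a (4 and 2 of 6) and Rpl17 (3 and 1 of 3). After cyclic loess the counts were 18 higher and 4 lower, and 11 higher and 4 lower. On that scale both shares called higher were above those of all features. Rpl31 feature 10922768 had levels of 10.26, 11.11 and 11.04 in SKP-derived Schwann cells, 10.42, 10.49 and 10.49 in nerve Schwann cells, and 9.62, 9.35 and 9.77 in SKPs, with no overlap between either kind of Schwann cell and SKPs.

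At the mRNA exit of the small subunit (Rps14, Rps26 and Rps28, 11 features), 4 features were called lower in SKP-derived and 10 in nerve Schwann cells, and 0 were called higher. After cyclic loess 8 and 10 were lower and 0 higher. At the mRNA entry (Rps2, Rps3 and Rps9, 14 features), 4 were called lower in each and 0 higher, so in SKP-derived Schwann cells the lower share was near that of all features. After cyclic loess 5 and 12 were lower and 0 higher. Rps2 had no feature called on the deposited values, at -0.20 to -0.36 and -0.33 to -0.52, while after cyclic loess 1 and 8 of its 9 features were called lower. At the decoding centre, Rps23 had 3 of 3 features called lower, by up to -1.10 and -1.19, on both scales. Rps15, the other gene measured there, was called higher on both scales, with levels of 11.60, 11.99 and 11.97 in SKP-derived Schwann cells, 11.30, 11.31 and 11.43 in nerve Schwann cells, and 10.53, 10.18 and 10.99 in SKPs. The difference of Rps15 was 1.29 ± 0.21 (limma adjusted p = 0.000956) and 0.78 ± 0.21 (limma adjusted p = 0.00828).

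The stalk of the large subunit recruits the translation factors. Of its 7 features, 2 were called lower in SKP-derived and 3 in nerve Schwann cells, and 3 and 6 after cyclic loess, with 0 higher. Rplp1 was called lower at both features, by -1.39 and -1.38 in SKP-derived and -1.92 and -1.81 in nerve Schwann cells, and Rplp0 at 1 of 2 features in nerve Schwann cells, by -0.97 (limma adjusted p = 0.00453). Rplp2 was not called at any of 3 features, at -0.04 to -0.08 in SKP-derived and -0.19 to -0.23 in nerve Schwann cells, but all 3 were called lower in nerve Schwann cells after cyclic loess. Of the 4 features of the 5S particle, 3 were called lower in SKP-derived and 4 in nerve Schwann cells, and 4 in each after cyclic loess. Rpl11 was called lower by -1.06 ± 0.30 in SKP-derived (limma adjusted p = 0.0198) and by -1.34 ± 0.30 in nerve Schwann cells (limma adjusted p = 0.00378). The Rpl11 call in SKP-derived Schwann cells was lost without SKP array 1 (limma adjusted p = 0.0676), SKP-derived array 1 (0.0729) or SKP-derived array 2 (0.0575). Rpl5 was called lower at 2 of 3 features in SKP-derived and 3 of 3 in nerve Schwann cells, by up to -0.96 and -1.43. The call of its feature 10775130 in nerve Schwann cells (-0.67, limma adjusted p = 0.0153) was lost without nerve array 1 (0.0645) or SKP array 1 (0.0516). The paralog Rpl22l1 was called lower in nerve Schwann cells, by -1.06 (limma adjusted p = 0.0331), with SKP array 1 at 8.07 and SKP arrays 2 and 3 at 6.46 and 6.83. That call was lost without SKP array 1 (-0.58, limma adjusted p = 0.0793), nerve array 1 (limma adjusted p = 0.0847) or nerve array 2 (limma adjusted p = 0.0973).

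Of 17 genes whose human counterparts are mutated in Diamond-Blackfan anaemia, an inherited failure of red cell production, 15 were measured by 54 features. In SKP-derived Schwann cells 16 of the 54 were called higher and 5 lower (median 0.15), and in nerve Schwann cells 9 higher and 21 lower (median -0.05). After cyclic loess 12 were higher and 10 lower in SKP-derived, and 5 higher and 21 lower in nerve Schwann cells. The 5 features of Rps19, the gene most often affected in that disease, were called lower in nerve Schwann cells by -0.68 to -1.07 and not called in SKP-derived Schwann cells, at -0.35 to -0.57. The difference between the kinds of Schwann cell at Rps19, 0.33 to 0.54, was not called.

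SKP-derived and nerve Schwann cells were then compared directly. Ribosomal protein levels leaned higher in SKP-derived Schwann cells, with a positive difference at 238 of 257 features, against 2425 of all 15310. The median difference of the 257 features was 0.31, where the median over all features tested was -0.44. By limma 20 features were called higher, where 1.47% of all features were, and 0 were called lower, where 41.1% of all were. At an unadjusted p under 0.05, limma gave 44 features higher and 0 lower, where 395 and 7661 of all 15310 were. After cyclic loess 251 of 257 differences were positive, with a median of 0.39 against -0.01 over all features, and 1 feature was called higher and 0 lower, where 0.784% and 0.549% of all features were. At an unadjusted p under 0.05, 101 were then higher and 0 lower, where 1620 and 1509 of all 15310 features were. Of all features, 7462 had a positive difference after cyclic loess. By gene, 3 of 70 had every feature called higher (Rps7, Rpl10a and Rps3a), where 1.23% of all genes had, and 0 had every feature called lower, where 41.6% had. The median level of the 257 features was 10.72, 11.44 and 11.31 in SKP-derived Schwann cells and 10.56, 10.68 and 10.83 in nerve Schwann cells, so SKP-derived array 1 lay nearest to the nerve arrays. The marker lists also differed between the SKP-derived arrays. After cyclic loess the 10 SKP and dermal markers averaged 8.35, 10.09 and 9.13 on SKP-derived arrays 1 to 3 and 8.77, 9.46 and 8.41 on nerve arrays 1 to 3. The 8 Schwann cell markers averaged 10.65, 9.68 and 10.08 on the SKP-derived arrays and 10.90, 10.86 and 10.88 on the nerve arrays. The 4 measured melanocyte markers averaged 6.97, 6.46 and 6.06 on the SKP-derived arrays and 5.61, 5.56 and 5.48 on the nerve arrays. The part of such differences in cell make-up in the comparison was not tested. Without SKP-derived array 1, 69 features were called higher, and without SKP-derived array 2 or 3, 6 and 7 were. Without nerve array 1 or 2, 4 and 6 were called higher, and without SKP array 3, 32 were.

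Rps7, a small-subunit protein, showed the greatest difference between the kinds of Schwann cell. Its feature 10881922 had levels of 10.42, 11.37 and 11.42 in SKP-derived Schwann cells, 9.57, 9.54 and 10.18 in nerve Schwann cells, and 11.61, 11.27 and 11.77 in SKPs. SKP-derived arrays 2 and 3 lay within the range of SKPs, the nerve arrays were lowest, and SKP-derived array 1 lay between the nerve and SKP arrays. The difference was 1.31 ± 0.29 between SKP-derived and nerve Schwann cells (limma adjusted p = 0.00806), and this was the 1 feature still called after cyclic loess (limma adjusted p = 0.0467). The other features of Rps7 differed by 1.25 (limma adjusted p = 0.0139) and 1.13 (limma adjusted p = 0.0293), and both calls were lost after cyclic loess (0.0642 and 0.0985) and without nerve array 1 (0.0511 and 0.0822) or nerve array 2 (0.054 and 0.0969). The feature at 1.13 was also lost without SKP-derived array 2 or 3 (0.0893 and 0.0898). Against SKPs, the 3 features were called lower in nerve Schwann cells, by -1.75 to -1.89, and not called in SKP-derived Schwann cells, at -0.48 to -0.76.

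Rpl10a, a protein of the stalk beside which spent tRNA leaves the ribosome, had 4 features in near agreement. Its feature 10890299 had levels of 10.87, 11.70 and 11.46 in SKP-derived Schwann cells, 10.21, 10.50 and 10.61 in nerve Schwann cells, and 11.06, 11.40 and 11.60 in SKPs. The nerve arrays lay below all others, but a call without overlap between the kinds of Schwann cell was a condition for picking this feature. Over all features tested, SKP-derived arrays lay wholly above nerve arrays in 3.51%. The 4 differences between SKP-derived and nerve Schwann cells were 0.83 to 0.90 (limma adjusted p from 0.0101 to 0.014), and after cyclic loess 0.91 to 0.98 without a call (limma adjusted p from 0.0519 to 0.0656). The call of feature 10890299 was also lost without nerve array 1 (0.79, limma adjusted p = 0.0562). Against SKPs they were -0.04 to 0.14 in SKP-derived, not called, and -0.70 to -0.93 in nerve Schwann cells, all called. Rps3a, which with Rps14 and Rps26 lies on the platform side of the small subunit, was higher by 0.82 ± 0.24 in SKP-derived than in nerve Schwann cells (limma adjusted p = 0.0222), with 10.69, 11.24 and 11.48 against 10.15, 10.23 and 10.58. Rpl9 was called higher at 6 of 9 features, by 0.54 to 0.68. The other 6 called features belonged to 6 genes, Rpl5, Rpl21, Rpl27, Rpl35a, Rpl37a and Rps4x, with 1 feature each.

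Genes that work with the ribosomal proteins were examined by lists. Fau, which encodes a small-subunit protein fused to a ubiquitin-like domain and lies outside the symbol pattern, was called lower by -1.07 in SKP-derived and by -1.89 in nerve Schwann cells. Rack1, a scaffold on the small subunit, was called higher in SKP-derived Schwann cells by 0.72. Over the 3 measured cytosolic ribosome genes outside the pattern, these 2 among them, the median was -0.75 in SKP-derived and -0.69 in nerve Schwann cells. In nerve Schwann cells 1 of the 3 was called lower and 0 higher, and 2 lower and 0 higher after cyclic loess. Of 12 measured genes with TOP mRNAs that encode no ribosomal protein (19 features), 10 features were called lower and 0 higher in SKP-derived Schwann cells, and 13 lower and 0 higher in nerve Schwann cells. After cyclic loess 11 and 14 were lower and 0 higher. The greatest falls among them were those of Eef1b2, a subunit of the exchange factor of elongation, by -1.46 and -1.98, Eif3h, a subunit of initiation factor 3, by -1.47 and -1.43, and the splicing regulator Hnrnpa1, by -1.32 and -1.17. Medians of this list were -0.65 and -0.79, against -0.01 and 0.44 over all features.

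Of 36 measured genes of ribosome biogenesis (41 features), 22 features were called lower and 5 higher in SKP-derived Schwann cells, and 19 lower and 3 higher in nerve Schwann cells. After cyclic loess 21 were lower and 7 higher in SKP-derived, and 23 lower and 3 higher in nerve Schwann cells. Those with the greatest falls were Rrp9, of the U3 particle that processes ribosomal RNA, by -1.69 and -1.65, Mrto4, a factor of 60S assembly, by -1.56 and -1.47, and Nhp2, of the particles that modify uridines, by -1.34 and -1.67. Nop16, a nucleolar protein, was called higher at 1 of its 2 features, by 1.45 and 1.34, and Sbds, which helps release a late assembly factor from the large subunit, was called higher by 0.92 and 1.43. Of 16 genes of RNA polymerases I and III, 3 were called lower and 2 higher in SKP-derived, and 2 lower and 2 higher in nerve Schwann cells. After cyclic loess the counts were 3 lower and 2 higher, and 5 lower and 1 higher. Taf1d, a subunit of the polymerase I selectivity factor, was higher by 1.87 and 1.95.

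Initiation factors (29 genes) had 9 features lower and 4 higher in SKP-derived, and 8 lower and 7 higher in nerve Schwann cells. After cyclic loess 11 were lower and 6 higher, and 10 lower and 5 higher. Eif1b, a relative of the start codon selection factor Eif1, was higher by 2.36 and 1.79, and the initiation factor 3 subunits Eif3a and Eif3b were lower by -1.28 and -1.36 in SKP-derived and by -1.20 and -1.09 in nerve Schwann cells. Of the mTOR and Myc list (21 features of 18 genes), 6 were lower and 3 higher in SKP-derived, and 2 lower and 8 higher in nerve Schwann cells, where the share called higher was below the 49.0% of all features. After cyclic loess 5 were lower and 4 higher in SKP-derived, and 4 lower and 7 higher in nerve Schwann cells. On that scale the share called higher in nerve Schwann cells was above the 24.3% of all features, so this relation depended on the scaling. The translation repressor Eif4ebp2 was higher by 0.90 and 1.60, the transcription factor Mycn by 1.65 and 1.07, and Rps6kb1, a kinase of ribosomal protein S6, was lower in SKP-derived Schwann cells by -1.04. Mxi1, of the same list, was higher in nerve Schwann cells by 1.60. Rps6ka2 was lower by -0.87 in SKP-derived and by -1.09 in nerve Schwann cells. The integrated stress response (10 features) had 2 lower and 0 higher in SKP-derived, and 1 lower and 2 higher in nerve Schwann cells. After cyclic loess the counts were 1 lower and 1 higher in SKP-derived, and 3 lower and 1 higher in nerve Schwann cells, so the balance depended on the scaling.

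Mitochondrial ribosomal proteins build the separate ribosome of mitochondria. Of 72 features of 68 genes, 30 were called higher and 12 lower in SKP-derived Schwann cells (median 0.35), where 19.5% of all features were called higher. In nerve Schwann cells 30 were higher and 15 lower (median 0.33), where 49.0% of all features were called higher. On the deposited values this list therefore did not lean higher than the rest there. After cyclic loess 34 were higher and 11 lower in SKP-derived (median 0.45), and 19 higher and 17 lower in nerve Schwann cells (median 0.15). On that scale 21.4% and 24.3% of all features were called higher. Mrps21 was higher by 3.52 and 2.97, Mrpl42 by 2.89 and 1.94, and Mrpl57 by 2.03 and 2.16.

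**Figure D5:**
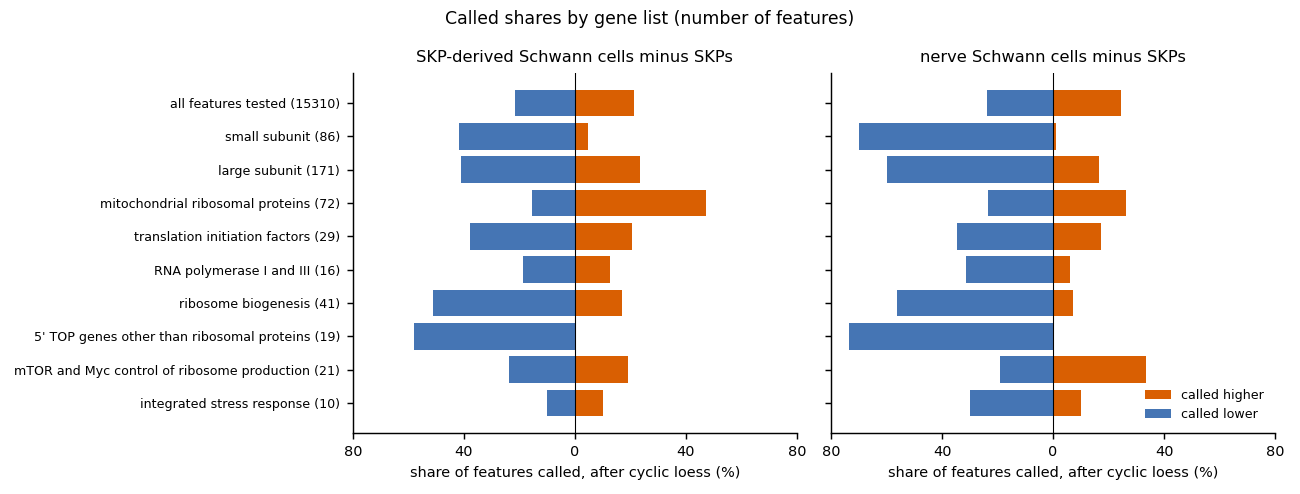
Share of features called higher (right of 0) and lower (left of 0) by limma after cyclic loess, in percent, for the 2 subunits, the other gene lists and all 15310 features tested, in SKP-derived and in nerve Schwann cells against SKPs. The small subunit has 36 and 60 of 86 features called lower, while the mitochondrial list has 34 and 19 of 72 called higher.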

How the data were processed

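Per the submitters' processing notes, the authors made the deposited log2 values with RMA in Affymetrix Expression Console. Versions, genome build and whether all 9 arrays were normalised together were not given in the sources used here. Each of the 9 arrays entered the fit.

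Features were named from the platform annotation: 15310 had 1 symbol, 323 several and 13581 none, and the last 2 kinds were left out of the tests. Of the 70 genes, 69 were matched by gene identifier to the RefSeq gene table of assembly GRCr8 with no change of symbol. 15 features share their 9 values with another, which leaves 249 distinct features. Group means were fitted to all 9 arrays with limma 3.58.1 in R 4.3.3 (lmFit, contrasts, eBayes), without a replicate block. Benjamini-Hochberg adjustment covered 15310 features per comparison, and an adjusted p under 0.05 made a call whatever the fold. Detection calls per probe were not used. Precision is limited by the number of arrays. The procedure was tested on simulated data.

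The genes and lists were chosen with earlier results of these data known, so they are described by counts and medians beside those of all features. Features named in the text are every feature of Rps7, Rps3 and Rpl13, the 6 greatest rises and falls per comparison among called features whose groups do not overlap, genes with opposite calls, stalk, 5S particle and paralog genes, and up to 4 called genes of each other list. Further genes were named after their values were seen. Alternatives were other scalings, variance models, filters, thresholds, 1 value per gene, a replicate block and leaving out each array.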

Additional observations from a re-analysis of the deposited data

How the results depend on the processing

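Against SKPs the direction of the medians and the greater number of lower than higher features held under every alternative run. With 1 feature per gene, of 70, 30 were lower and 15 higher in SKP-derived Schwann cells, and 41 lower and 8 higher in nerve Schwann cells. With the mean of a gene's features these were 30 and 14, and 40 and 7, where fewer features were counted. With an absolute log2 difference of at least 1 as a further condition, 65 were lower and 30 higher in SKP-derived, and 83 lower and 22 higher in nerve Schwann cells. Leaving out each array in turn gave 71 to 90 lower and 42 to 59 higher in SKP-derived (median -0.43 to -0.12), and 120 to 145 lower and 30 to 42 higher in nerve Schwann cells (median -0.79 to -0.55). Averaging the features of Rpl13 reversed its feature 10808601, to -1.06 in SKP-derived and -1.23 in nerve Schwann cells, since 6 of the 7 are lower.

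Between SKP-derived and nerve Schwann cells the number called higher depended on the setting: 34 with median centring, 1 with cyclic loess, 6 with quantile normalisation, 6 with 1 feature per gene, 5 with the mean of the features, 6 without features under the median level, 1 at an adjusted p under 0.01 and 3 with the fold condition. It was 4 to 69 when an array was left out. The number lower was 1 with only the groups compared, 2 with array weights and 0 to 1 when an array was left out. The median was 0.67 with median centring, 0.13 with array weights and 0.22 to 0.47 when an array was left out. The cause was not tested.

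The groups share replicate numbers, and whether these pair the samples could not be decided from the values. Correlations of same-numbered arrays, as deviations from group means over all features, ran from -0.12 to 0.28. Those of differently numbered arrays ran from -0.25 to 0.16. Nerve array 1 correlated better with SKP array 2 (0.12) than with SKP array 1 (0.04), while nerve array 3 correlated best with SKP array 3 (0.19). With 3 arrays per group, such correlations can neither show nor exclude a pairing. With a replicate block, 91 were lower and 53 higher in SKP-derived and 141 lower and 37 higher in nerve Schwann cells against SKPs, and 29 were higher between the kinds of Schwann cell. The replicate block moved no count by over 1.5 times. Of 1187 pairs of a named feature or gene and an alternative, 1130 kept direction and side of the threshold, 39 lost the call, 11 gained it, 5 uncalled ones changed sign, and 2 called ones reversed.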
